A study of Homo sapiens with 6 samples.

Results

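The cleavage and polyadenylation factors are the proteins that cut a nascent transcript at its 3′ end and direct the addition of the poly(A) tail. The mRNAs of 10 of them, CPSF1, CPSF2, CPSF3, FIP1L1, CSTF1, CSTF2, CSTF3, NUDT21, CPSF6 and PCF11, were taken by gene symbol from a table of 57150 genes, and each symbol had 1 row. The table comes from K562 cells, a human erythroleukemia line. Of the 6 pools of cells in the study, 3 were transfected with siRNAs that target the mRNAs of αCP1 and αCP2 together, and 3 with control siRNAs. All pools were transfected and were harvested 72 h later for RNA-seq. By the study's description the αCP1/2 pools received 2 distinct siRNAs, and the controls differ in sequence and include siRNAs against an unrelated mRNA, GLD-2. The table gives, for each gene, 1 FPKM value (a fragment count scaled to transcript length and library depth) and 1 estimated count for either group, under the labels KD and CTRL, and does not separate the 3 libraries of a group. No spread between replicates could therefore be computed, no test between the groups was run, and every difference below describes these columns only.

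In the pathway, CPSF (cleavage and polyadenylation specificity factor) recognises the AAUAAA hexamer upstream of the cleavage site, and its subunit CPSF3 is the endonuclease. CstF (cleavage stimulation factor) binds GU-rich sequence downstream of the site. CFIm (cleavage factor I), built from NUDT21 with CPSF6 or CPSF7, binds UGUA upstream and influences which of several poly(A) sites is used, and CFIIm, which holds PCF11 and CLP1, links cleavage to the end of transcription. The αCPs, which bind C-rich RNA, are known to influence 3′ processing as well as splicing, which makes the levels of these factors a question for cells transfected with αCP1/2 siRNAs.

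The 3′ ends of most of the factors' own transcripts carry the signal that CPSF reads. In the canonical transcripts of GENCODE release 44 on GRCh37, AATAAA was found in the last 50 bases of 8 of the 10, against 63.5% of 19870 protein-coding transcripts, and in neither CPSF1 nor FIP1L1. ATTAAA, searched on the same strand, was found in 0 of the 10 and in 18.0% of all. Either hexamer was found in 80% of the 10 and in 77.5% of all, so the combined shares were close. A match is a description of the sequence and not of its use. The last 30 bases are shown for CPSF2, CSTF1 and CSTF2, whose ends lie outside the locus in the table, and for CSTF3, NUDT21 and CPSF6, the other subunits of CstF and CFIm. They are DNA on the transcript's strand, 5′ to 3′, with GRCh37 coordinates, and the capitals mark the hexamer.
CPSF2 (chr14:92638460-92638489, plus strand): caattgtgaAATAAAcagattctgaaggtc
CSTF1 (chr20:54981389-54981418, plus strand): gatttctgaAATAAActttatatacaatga
CSTF2 (chrX:100096480-100096509, plus strand): aagatgaAATAAAaacagaaatcaaatgaa
CSTF3 (chr11:33106130-33106159, minus strand): tcctttaaaaAATAAAaggattcagaaaca
NUDT21 (chr16:56463045-56463074, minus strand): tcatttcAATAAAaaatatttgaaagagaa
CPSF6 (chr12:69668109-69668138, plus strand): tattgaaAATAAAacaaacttttgataaga
In these 6 the hexamer ended 14 to 17 bases before the annotated end. TGTA, the DNA form of the CFIm element, occurred in the last 100 bases of 7 of the 10 transcripts, or 70%, against 51.9% of all. The annotated end lay beyond the locus that the table gives by 7734 bases for CPSF2, 1900 for CSTF1 and 588 for CSTF2, so reads from those stretches were outside the model that was counted. For CPSF3, NUDT21 and CPSF6 the end and the locus coincided. Relative to the edge of the locus, with negative values inside it, the end lay at -837385 bases for FIP1L1 and -237723 for PCF11. It lay at -45167 for CSTF3 and -21656 for CPSF1. The spans printed with the genes below are these loci, and they can reach well beyond the gene itself.

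The total of estimated counts was 13699340 for the KD-labelled column and 11680567 for the CTRL-labelled column. Both totals are below the mapped read pairs that the study reports for each single library, and the reason was not tested. PCBP1, which encodes αCP1, had an FPKM of 184.1 and 187.8 in the KD-labelled and CTRL-labelled columns. PCBP2, which encodes αCP2, had 530.8 and 342.4. The targeted mRNAs were thus not both lower in the KD-labelled column, and the columns are named by their labels throughout. The study itself reports depletion of αCP1/2 in mRNA and in protein, with a Western blot. On the opposite strand, exons of PCBP1-AS1 overlap 1264 of the 1727 bases of the PCBP1 transcript. Those of MAP3K12 overlap 1494 of the 3159 bases of PCBP2. The part of these overlaps in the values was not tested. Of 12 erythroid and hematopoietic markers, 8 were under an FPKM of 1 in both columns, and GATA1, KLF1, TAL1, ALAS2 and HBZ were listed at 0 in both. Their summed FPKM was 161.6 and 43.4, of which HBE1 held 152.9 and 35.4. The 6 epithelial markers summed to 4358 and 3174, nearly all of it from KRT18 (2309.5 and 1747.8), KRT8 (1505.1 and 818.7) and KRT7 (539.5 and 604.3). EPCAM was at 3.94 and 3.26, CDH1 at 0.36 and 0.43, and KRT19 was listed at 0 in both. The part of these differences in the values below was not tested. In bulk RNA, fewer cells of a type and less RNA per cell cannot be told apart.

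All 10 factor mRNAs were well expressed. Among the 13741 genes that passed a filter on low values (mean FPKM over both columns of 1 or more), the lowest member lay at percentile 60.0, for CSTF2 in the KD-labelled column. NUDT21, the UGUA-binding subunit of CFIm, had the most mRNA per length, with an FPKM of 93.3 in the KD-labelled column and 112.9 in the CTRL-labelled column. CSTF2, the RNA-binding subunit of CstF, had the least in the KD-labelled column (16.5), and CPSF1 had the least in the CTRL-labelled column (21.1). Summed over the 10, the FPKM was 374.7 and 399.4.

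**Figure D1:**
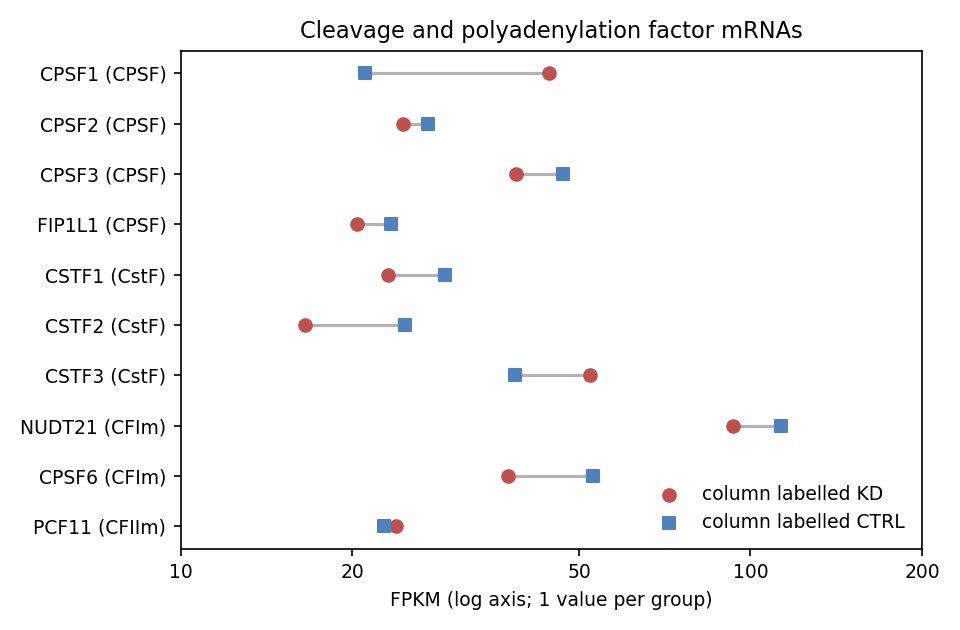
FPKM (log axis) of the 10 factors in the KD-labelled column (circles) and the CTRL-labelled column (squares), 1 value per group with no error. CPSF1, CSTF3 and PCF11 lie to the right in the KD-labelled column and the other 7 lie to the left.

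Differences are given as log2 of (FPKM + 1) in the KD-labelled column over that in the CTRL-labelled column. The median over the 10 was -0.23, against 0.015 over all genes that passed the filter. Of the 10, 3 lay above 0, against 51.1% of all genes, and 7 below, against 48.9%. A log2 ratio of 1 or more was reached by CPSF1 alone, 1 of 10 against 8.51% of all genes, and none was at -1 or less, against 3.27%. At the lower threshold of 0.5, CPSF1 was again the only member higher (22.6% of all genes) and CSTF2 the only one lower (16.1%). These shares are near those of all genes or below them, so the set did not stand out by the number of large differences.

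The same differences were recomputed from the estimated counts, each divided by its column's total, with a 95% exact binomial interval that covers counting error only. On this scale the median over all genes was -0.21, and 5 of the 10 factors lay above that median. Above 0 lay 2 of the 10, against 38.1% of all genes. The interval lay wholly above 0 for 2 of the 10, against 23.8% of all genes, and wholly below 0 for 6, against 43.7%. A ratio of -0.5 or less was found for CSTF1, CSTF2 and CPSF6, 3 of 10 against 31.7%. A further scale removed the trend of the FPKM log2 ratio with GC content and transcript length, and 5 of the 10 were above 0 on it, against 51.2% of all genes. On that scale 2 of the 10 were at 0.5 or more, against 17.2%, and 0 at -0.5 or less, against 14.1%. On all 3 scales, the counts taken relative to the median of all genes, CPSF1 and CSTF3 were higher, and CSTF1, CSTF2, NUDT21 and CPSF6 were lower, in the KD-labelled column. The other 4, CPSF2, CPSF3, FIP1L1 and PCF11, changed sign between scales.

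**Figure D2:**
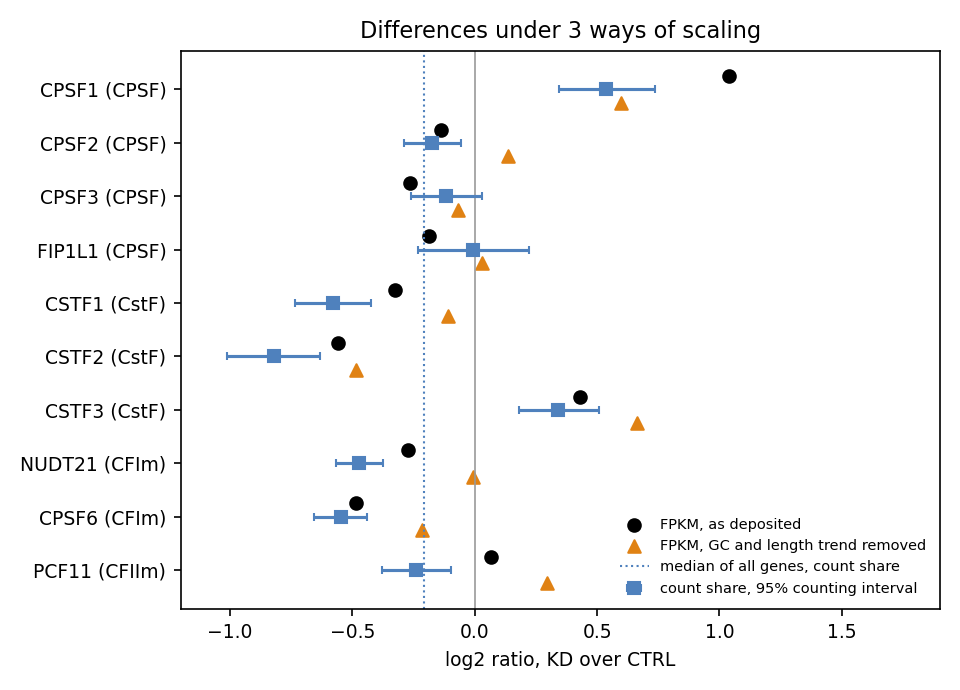
Log2 ratio of the KD-labelled column over the CTRL-labelled column for the 10 factors, from FPKM (circles), from count shares with the 95% counting interval (squares and bars) and from FPKM with the GC and length trend removed (triangles). The dotted line is the median of all genes for count shares, at -0.21, and CSTF2 lies to its left while CSTF3 and CPSF1 lie to the right of 0 on every scale.

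Within CPSF, CPSF1 differed from its partners. CPSF1 (ENSG00000071894; chromosome 8, 145596789 to 145634753 in hg19), the largest subunit and a scaffold of the part that recognises AAUAAA, had an FPKM of 44.3 in the KD-labelled column and 21.1 in the CTRL-labelled column, from 586 and 344 counts. The log2 ratio was 1.04 from FPKM and 0.54 from count shares (95% interval 0.34 to 0.73), or 0.74 relative to the median of all genes. It was 0.60 with the GC and length trend removed, so the threshold of 1 was passed on the FPKM scale only.

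The other 3 CPSF members lay close together. CPSF3 (ENSG00000119203; chromosome 2, 9563696 to 9613230), the endonuclease, had an FPKM of 38.8 and 46.8 in the KD-labelled and CTRL-labelled columns. CPSF2 (ENSG00000165934; chromosome 14, 92588280 to 92630755), its partner of the same protein fold, had 24.6 and 27.1. FIP1L1 (ENSG00000145216; chromosome 4, 54243809 to 55164414), which contacts poly(A) polymerase, had 20.4 and 23.4. Their log2 ratios were between -0.26 and -0.14 from FPKM and between -0.17 and -0.01 from count shares, and the counting interval included 0 for CPSF3 (-0.26 to 0.03) and FIP1L1 (-0.23 to 0.22). FIP1L1 shares 1561 of the 3396 bases of its canonical transcript with exons of LNX1 on the opposite strand. The library kit does not mark strand, so reads from the overlap cannot be told apart.

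Within CstF, the subunits differed in opposite directions. CSTF3 (ENSG00000176102; chromosome 11, 33060962 to 33213144), the scaffold subunit, had an FPKM of 52.3 in the KD-labelled column and 38.5 in the CTRL-labelled column, from 775 and 521 counts. CSTF2 (ENSG00000101811; chromosome X, 100075383 to 100095921), which carries the RNA-binding domain, had an FPKM of 16.5 and 24.8, from 380 and 572 counts. CSTF1 (ENSG00000101138; chromosome 20, 54967426 to 54979518), the WD-repeat subunit, had 23.1 and 29.1, from 600 and 764 counts. By FPKM, a level per length, the order of the 3 mRNAs was CSTF3, CSTF1, CSTF2 in both columns.

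CSTF3 was higher in the KD-labelled column by a log2 ratio of 0.43 from FPKM and 0.34 from count shares (0.18 to 0.51). CSTF2 was lower, at -0.56 and -0.82 (-1.01 to -0.63), and its log2 ratio stayed between -0.82 and -0.48 over all the scales run. CSTF1 lay at -0.32 and -0.58 (-0.74 to -0.42), and at -0.11 with the GC and length trend removed. CSTF3 made up 56.9% of the summed FPKM of the 3 CstF mRNAs in the KD-labelled column and 41.7% in the CTRL-labelled column, while the sum itself was 91.9 and 92.4. The summed counts of the 3 were 1755 and 1857, a log2 ratio of count shares of -0.31, or -0.10 relative to the median of all genes. Exons of TCP11L1 on the opposite strand overlap 392 of the 2812 bases of the CSTF3 transcript.

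Of the CFIm mRNAs, NUDT21 and CPSF6 were lower in the KD-labelled column from FPKM and from counts, and CPSF7, described with the paralogs, was not. NUDT21 (ENSG00000167005; chromosome 16, 56463044 to 56554195) had the FPKM values of 93.3 and 112.9 given above, from 1665 and 1968 counts, a log2 ratio of -0.27 from FPKM and -0.47 from count shares (-0.57 to -0.38). CPSF6 (ENSG00000111605; chromosome 12, 69633316 to 69668138), the larger subunit, had an FPKM of 37.5 and 52.9, from 1245 and 1552 counts, and log2 ratios of -0.48 and -0.55 (-0.66 to -0.44). With the GC and length trend removed, NUDT21 was at -0.0078 and CPSF6 at -0.22, so little of the difference in NUDT21 remained on that scale. A second gene model on the same strand, ENSG00000288725, shares 2724 of the 4393 bases of the NUDT21 transcript.

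PCF11 (ENSG00000165494; chromosome 11, 82868029 to 83134559), the CFIIm subunit that binds the C-terminal domain of RNA polymerase II, had nearly the same level in both columns. Its FPKM was 23.9 in the KD-labelled column and 22.7 in the CTRL-labelled column, from 817 and 822 counts. The log2 ratio was 0.07 from FPKM, -0.24 from count shares (-0.38 to -0.10), which is -0.03 relative to the median of all genes, and 0.30 with the GC and length trend removed. No direction can be given for it.

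The ratio of 2 mRNAs within a column does not depend on how the columns were scaled to each other. These pairs were chosen after the values had been seen. CSTF3 had 3.17 times the FPKM of CSTF2 in the KD-labelled column and 1.55 times in the CTRL-labelled column. The corresponding ratios of counts were 2.04 and 0.911, a change of 1.16 in log2 (exact 95% interval of the counts 0.91 to 1.41). The change was 1.03 from FPKM and 1.15 with the GC and length trend removed, so it was of like size on each scale. For CSTF3 over CSTF1 the change was 0.92 (0.69 to 1.15) in counts, and for CSTF1 over CSTF2 it was 0.24 (-0.01 to 0.49), an interval that includes 0.

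In CPSF, the counts of CPSF1 were higher in the KD-labelled column relative to CPSF2 by 0.71 (0.48 to 0.94), to CPSF3 by 0.65 (0.41 to 0.90) and to FIP1L1 by 0.54 (0.24 to 0.85). From FPKM the same changes were larger, between 1.22 and 1.34, and with the GC and length trend removed they were between 0.46 and 0.66. In counts, the ratios among CPSF2, CPSF3 and FIP1L1 had changes between -0.17 and -0.06, with intervals that included 0. From FPKM they lay between -0.07 and 0.13, and with the trend removed between -0.10 and 0.20, so their direction depended on the scale. Relative to SYMPK, the scaffold of the complex that is outside the 10, CPSF1 changed by 0.06 (-0.19 to 0.30). NUDT21 over CPSF6 changed by 0.08 (-0.07 to 0.22). Of the 10 pairs within CPSF, CstF and CFIm, the counting interval excluded 0 in 5, all of which held CPSF1 or CSTF3. The share over pairs of all genes was not computed. For single genes the counting interval lay above 0 for 23.8% of all genes and below 0 for 43.7%. An interval that excludes 0 was thus common in these columns.

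CstF and CFIm each have a paralog that can take a subunit's place. CSTF2T, the paralog of CSTF2, had an FPKM of 19.4 in the KD-labelled column and 17.5 in the CTRL-labelled column, so CSTF2 stood at 0.852 times its paralog in the KD-labelled column and at 1.42 times in the CTRL-labelled column. The change was -0.74 in counts (-0.98 to -0.51), -0.74 from FPKM and -0.83 with the trend removed. CPSF7, which takes the place of CPSF6 in CFIm, had an FPKM of 47.2 and 39.6, and CPSF6 stood at 0.796 and 1.34 times CPSF7. That change was -0.60 in counts (-0.74 to -0.45) and -0.46 with the trend removed. In both pairs the mRNA with more mRNA per length was a different one in each column. NUDT21 over CPSF7 changed by -0.52 in counts (-0.66 to -0.39) and by -0.25 with the trend removed, and PCF11 over its partner CLP1 by 0.40 (0.16 to 0.65) and 0.66. CSTF2 and CSTF2T are similar in sequence, and how the authors' counting divided reads between them was not tested.

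**Figure D3:**
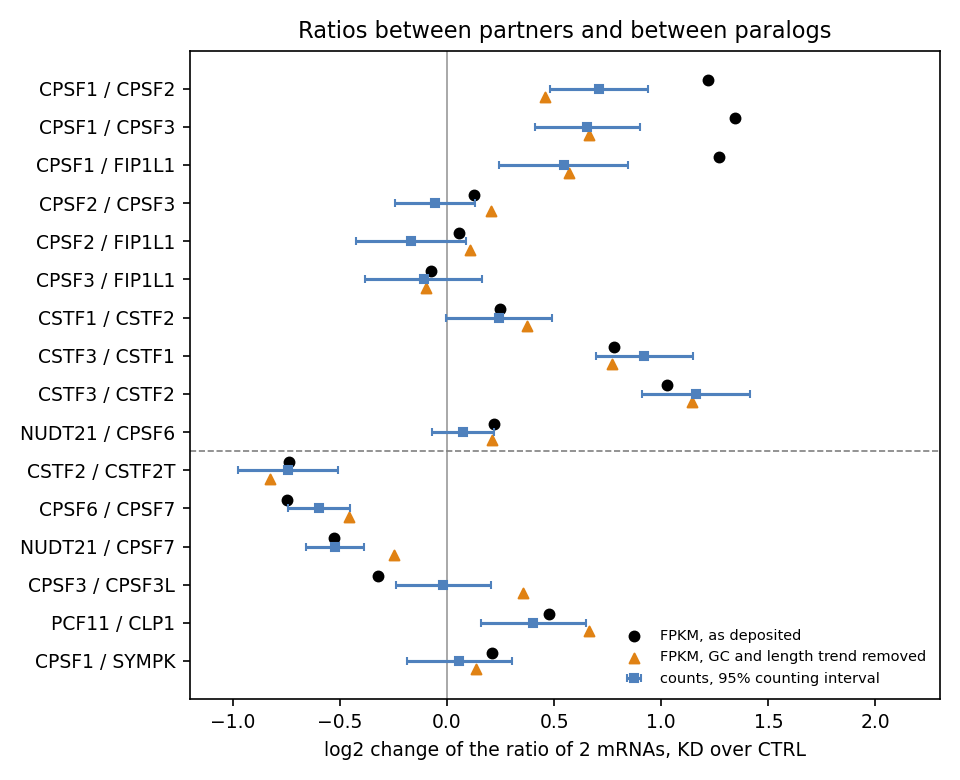
Change of the ratio of 2 mRNAs, as log2 of the KD-labelled column over the CTRL-labelled column, from FPKM (circles), from counts with the exact 95% counting interval (squares and bars) and with the GC and length trend removed (triangles). Pairs above the dashed line are partners within CPSF, CstF or CFIm, where CSTF3 over CSTF2 lies at 1.16 in counts, and pairs below it are with paralogs or other partners, where CSTF2 over CSTF2T lies at -0.74.

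The GC content of the transcripts moved with the differences. Over 13120 genes the log2 FPKM ratio was higher at higher GC content (Spearman rho 0.462 across genes, which share the same columns and are not replicates). In 4 groups of 3280 genes by GC content, the median ratio was -0.24 in the group with the least GC and 0.48 in the group with the most. The canonical transcripts of 9 of the 10 factors had less GC than the median gene (48.4%), with 36.9% for CPSF6 as the lowest, and CPSF1 had 62.3%. CSTF2 (47.9%) lay below the median of its GC group, -0.14, and CSTF3 (40.6%) lay above that of its own, -0.24. With the trend removed the median over the 10 was 0.011, against 0.014 over all genes.

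**Figure D4:**
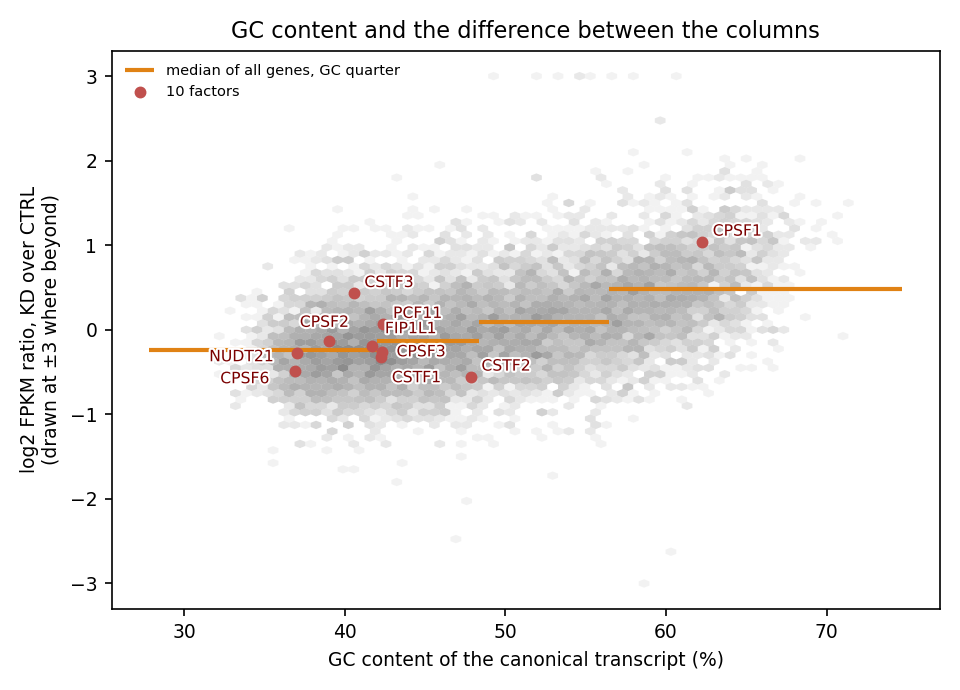
Log2 FPKM ratio of the KD-labelled column over the CTRL-labelled column against the GC content of the canonical transcript (%), with all genes as grey bins, the median of each of the 4 GC groups as a bar and the 10 factors as points. CPSF1, at 62.3% GC, lies in the group with a median of 0.48, and 5 factors lie in the group with a median of -0.24.

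A count and an FPKM together imply the length of transcript that the authors' calculation assigned to a gene, and this length moved between the columns for some members. The ratio of the implied lengths, taken relative to the median over all genes, was 0.806 in the KD-labelled column over the CTRL-labelled column for CPSF1, which is percentile 6.19 of all genes. For CPSF3 it was 1.30 (percentile 95.1) and for FIP1L1 1.33 (percentile 95.8). For CSTF1, CSTF2, NUDT21 and PCF11 it was between 0.944 and 1.02. This is where the FPKM and the count values of CPSF1, CPSF3 and FIP1L1 part, and none of the 10 moved by 0.5 or more in log2, against 5.25% of all genes in either direction and 2.91% lower in the KD-labelled column. On a scale where the median gene is at 100% of its canonical length, the implied lengths of the 10 ranged from 31.9% for CPSF1 to 100.0% for CPSF3 in the KD-labelled column. In the CTRL-labelled column they ranged from 36.4% for CPSF2 to 97.9% for CSTF2.

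Around these factors, 50 further genes of 3′ end processing and transcription termination were examined as 8 lists, and 48 passed the filter. Their median log2 FPKM ratio was -0.26. Of the 48, 19 lay above 0, against 51.1% of all genes, and 29 below, against 48.9%. At 1 or more lay 1, against 8.51% of all genes, and at -1 or less lay 0, against 3.27%. On the count scale the interval was above 0 for 6 of the 48, against 23.8% of all genes, and below 0 for 32, against 43.7%. With the GC and length trend removed the median was -0.056.

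Among the remaining CPSF subunits, SYMPK was at 0.83 and CPSF4, a zinc-finger subunit that contacts AAUAAA, at -0.32, with an FPKM of 27.2 in the KD-labelled column and 34.3 in the CTRL-labelled column. From count shares SYMPK was at 0.48 and CPSF4 at -0.64 (-0.82 to -0.47). With the GC and length trend removed they were at 0.46 and -0.64, so the size of both differences depended on the scale. WDR33, which also contacts the hexamer, was at 0.04, and CPSF4L was listed at 0 in both columns. CLP1, the partner of PCF11, was at -0.39, the lowest of its list, and PABPN1, the nuclear poly(A)-binding protein, was the highest at 0.26. From count shares PABPN1 was at -0.16 (-0.25 to -0.06), or 0.05 relative to the median of all genes, so its sign depended on the scale. PAPOLA, the main nuclear poly(A) polymerase, had an FPKM of 55.3 and 66.9, a log2 ratio of -0.27. SSU72, a phosphatase of the polymerase C-terminal domain, was the highest of the accessory factors at 0.95, with an FPKM of 129.4 and 66.6, and PPP1CB was the lowest at -0.49.

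In the termination list 6 of 8 lay below 0, against 48.9% of all genes. RPRD1B, which binds the polymerase C-terminal domain, was the lowest at -0.94, with an FPKM of 8.86 in the KD-labelled column and 17.9 in the CTRL-labelled column, and the helicase DHX9 was the highest at 0.51. DHX9 was at -0.26 from count shares, close to the median of all genes on that scale, so its direction depended on the scale. Of 8 factors for the 3′ ends of replication-dependent histone mRNAs, 6 lay below 0, against 48.9% of all genes. SRRT, a cap-binding partner, was the lowest at -0.93 (FPKM 77.1 and 147.5) and ZNF473 the highest at 0.38. From count shares ZNF473 was at 0.002 (-0.31 to 0.32), an interval that includes 0. The 6 PAF1 complex genes ranged from -0.61 for CDC73 to 0.35 for PAF1. From count shares PAF1 was at 0.10 (-0.01 to 0.21), an interval that includes 0.

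The Integrator complex, which cleaves the 3′ ends of small nuclear RNAs with a nuclease related to CPSF3, held the largest difference of these lists. INTS1, its largest subunit, had an FPKM of 61.6 in the KD-labelled column and 12.8 in the CTRL-labelled column, from 1701 and 583 counts, a log2 ratio of 2.19 from FPKM, 1.31 from count shares (1.18 to 1.45) and 1.66 with the GC and length trend removed. Of the 12 subunits 7 lay above 0, against 51.1% of all genes, and 5 below, against 48.9%. INTS6 was the lowest from FPKM at -0.81, with 109 and 138 counts. From count shares it was at -0.57 (-0.95 to -0.20) and was not the lowest of the list. CPSF3L, the relative of CPSF3, was at 0.05, and INTS9, the relative of CPSF2, at 0.48.

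**Figure D5:**
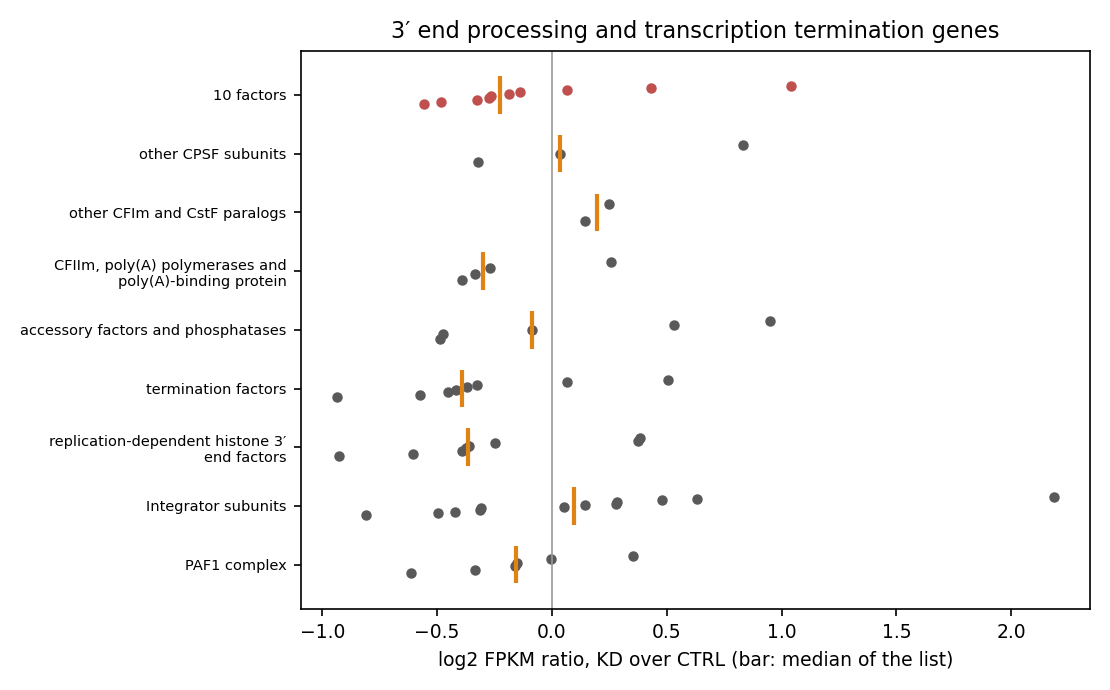
Log2 FPKM ratio of the KD-labelled column over the CTRL-labelled column for the 10 factors and for the 48 other genes that passed the filter, by list, with the median of each list as a bar. INTS1 lies furthest to the right at 2.19 and RPRD1B furthest to the left at -0.94.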

How the data were processed

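For the 6 libraries, reads were aligned by the authors with TopHat 1.4.1 against hg19 and Ensembl gene models, and Cuffdiff 2.2.0 gave the FPKM values. The deposited table gives 1 FPKM value and 1 estimated count per gene and group. The way in which libraries were merged into a group value is not stated, and 78.4% of the positive counts in the KD-labelled column were whole within 0.0001. Columns with the authors' fold changes, p-values and group averages were not used. Log2 ratios used a pseudocount of 1 and genes whose mean FPKM over both columns was 1 or more. Such ratios understate the differences of genes with low values. Count shares used a prior of 0.5 counts and exact 95% binomial intervals (Clopper-Pearson) of the rounded counts. These cover counting error only, and pair ratios used the exact interval of the odds ratio. The implied length is the count over FPKM and column total. GC content, length and 3′ ends came from the canonical transcripts of GENCODE release 44 on GRCh37 (hg19 coordinates), with a match for 95.5% of the genes. The trend was a quadratic in GC content and log2 length. The named genes were the 10 members, αCP1 and αCP2, paralogs, and of each list the highest, the lowest and those at 1 or beyond; WDR33 and PAPOLA were added for their role after their values were seen. The members and lists were chosen with earlier results of these data known. The functions were tested on simulated data. The work used scipy 1.17.1, pandas 2.3.3, numpy 2.4.6 and matplotlib 3.10.9 under Python 3.11.15.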

Additional observations from a re-analysis of the deposited data

How the results depend on the processing

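The values were recomputed with a pseudocount of 0.1, no filter, an FPKM over 5 in at least 1 column, centring on the median of all genes, the sum over rows of a symbol, counts divided by the column total, and the GC and length trend removed. No filter, the stricter filter and the sum over rows left every member's ratio identical, since each passed both filters and had 1 row, and so say nothing of stability. With counts divided by the column total, 0 members were at 1 or more against 1, 3 were at -0.5 or less (31.7% of all genes) against 1, and the median of the other 3′ end processing factors was -0.47 against -0.26. The median of all genes moved to -0.21 on that scale. With the trend removed, the median of the 10 was 0.011 against -0.23, 0 were at 1 or more, 2 were at 0.5 or more (17.2% of all genes) against 1, 0 were at -0.5 or less (14.1%), and the median of the other factors was -0.056. The cause was not tested. Counts relative to the median of all genes and the ratios within and between complexes were chosen after seeing the data. No paired analysis was possible because each group has a single deposited value for a gene, and likewise no library could be left out. The depth limits FIP1L1 most, with 348 and 298 counts, whose counting interval spans -0.23 to 0.22.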
